A study of Mus musculus with 2 samples.

Results

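The genes described here encode bone morphogenetic proteins (BMPs), their receptors, a secreted antagonist and the genes that BMP signalling switches on. They are Bmp2, Bmp4, Bmp7, Bmpr1a, Bmpr2, Grem1, Smad6, Id1, Id2 and Id3, 10 genes of the 18193 named on the array. They were found by symbol, as the probe sets that carry exactly 1 gene symbol, and every such probe set is shown, 21 in all. The genes were chosen by symbol with the control and DKK1 signals of these same arrays already known, so those signals and their differences are a description and are not tested.

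The data are 2 expression arrays, both of the mouse osteosarcoma line MOS-J. The control array, titled Control, holds RNA of control MOS-J cells, and the DKK1 array, titled DKK1, RNA of MOS-J cells given human DKK1. The treatment protocol describes a control lentivirus and a lentivirus carrying human DKK1. It also describes a plasmid route and later labelling with a red fluorescent protein. The sources used here do not say which route the profiled cells took, or whether either culture was a single clone. Each group has 1 array, so no value has a replicate error, and a difference compares these 2 arrays, not the conditions. The values are MAS5 signals, 1 per probe set on a linear scale, and each probe set has its own response, so levels are compared between arrays and never between genes.

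BMPs are secreted ligands of the TGF-beta superfamily, first known for inducing ectopic bone. They bring together type I receptors such as Bmpr1a and type II receptors such as Bmpr2, which phosphorylate Smad1, Smad5 and Smad9. These enter the nucleus with Smad4 and switch on early targets, among them the Id genes and the inhibitory Smad genes, while secreted antagonists such as gremlin and noggin hold the ligands away from the receptors. In the osteoblast lineage BMP signalling promotes differentiation and acts together with Wnt signalling, which DKK1 blocks at the co-receptors LRP5 and LRP6.

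Differences are on the log2(signal + 16.6) scale, DKK1 minus control. The pseudocount of 16.6 is the 25th percentile of the signals on both arrays. For dim genes it makes the difference smaller than the log2 ratio of the 2 signals. Where a signal is dim the change itself is not known, so the difference is not a lower bound. Probe sets with a mean signal of at least 71.3, the median over all probe sets, are called measured, and 71.3 is the filter in what follows. A gene takes the average of its measured probe sets. It was called when that average reached 2-fold, or 1 on the log2 scale, with no measured probe set pointing the other way. All 10 genes were measured, by 18 of their 21 probe sets. For 5 of those 18 the control signal lay below the filter and the DKK1 signal above it, so they passed through the DKK1 array.

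The signal was higher on the DKK1 array for all 21 probe sets, against 55.3% of all probe sets with 1 symbol. Of the 10 genes, 8 were called higher and 0 lower, where 11.7% of all 11058 measured genes were called higher and 6.91% lower. The 8 were the 3 ligand genes, the 4 target genes and Grem1, and the 2 receptor genes were not called. The median difference of the 10 genes was 2.35, and that of all measured genes 0.10.

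**Figure D1:**
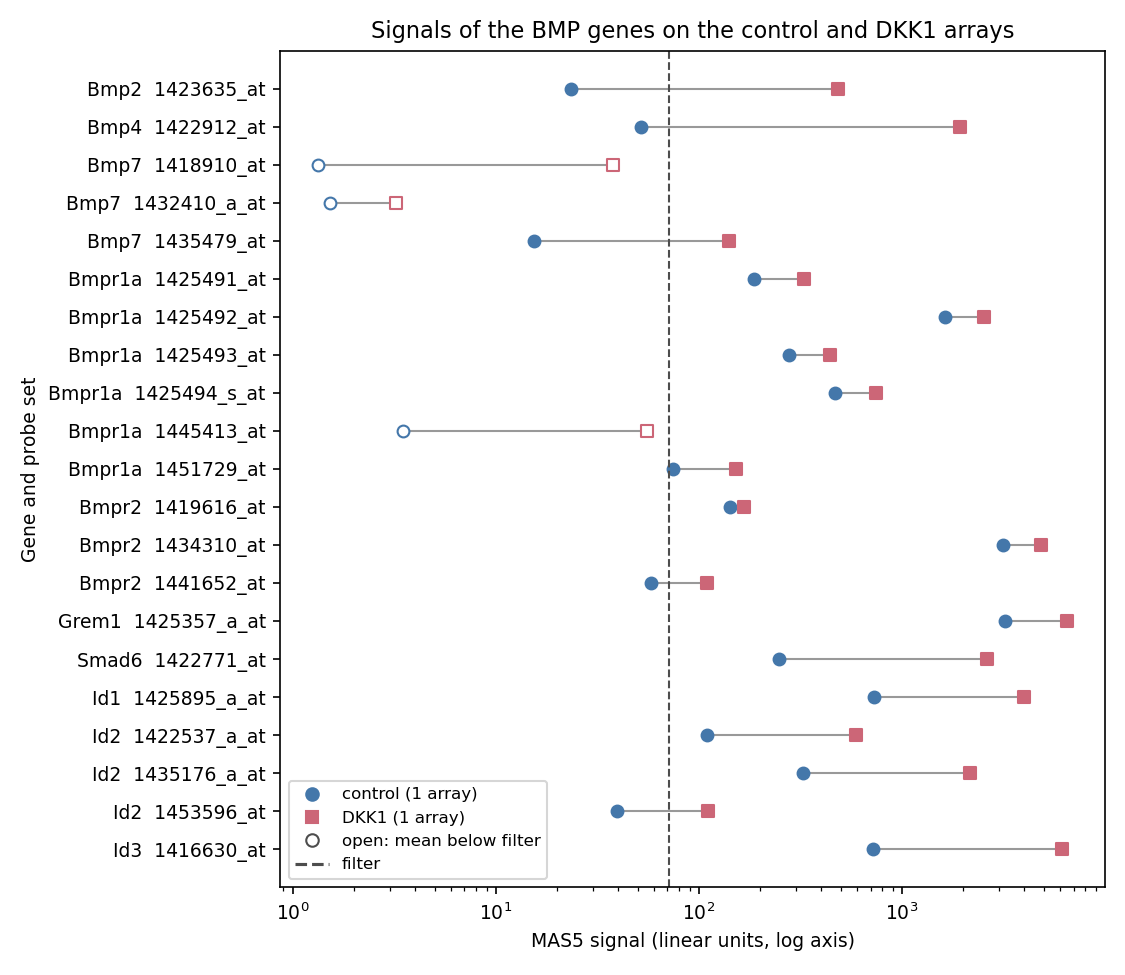
MAS5 signal of each of the 21 probe sets (log axis) on the control array (circles) and the DKK1 array (squares), joined by a line, with the filter of 71.3 dashed and open symbols for the 3 probe sets below it. The DKK1 signal lies to the right of the control signal in all 21, with long lines for Bmp4, Bmp2, Smad6 and the Id genes and short ones for the measured probe sets of Bmpr1a and Bmpr2.

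The 3 ligand genes were below the filter on the control array and higher on the DKK1 array, so their differences set no order among them. Bmp4 encodes a ligand of early embryonic patterning and of bone and cartilage formation. The signal of its 1 probe set, 1422912_at, was 51.7 for control and 1924 for DKK1, which is a difference of 4.83. The control signal was below the filter, and with it raised to 71.3 the DKK1 signal was at least 27.0-fold higher.

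Bmp2 encodes a close relative of Bmp4 that is required for fracture repair. Its 1 probe set, 1423635_at, gave 23.5 for control against 483 for DKK1, a difference of 3.64. The control signal was below the filter, and the bound was at least 6.78-fold.

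Bmp7, a ligand of kidney, eye and skeletal development, was near the filter even in DKK1 cells. Its probe set 1435479_at gave 15.4 for control against 140.6 for DKK1, a difference of 2.30 that was called higher. The bound for it was at least 1.97-fold, just short of the 2-fold used for a call. The other two probe sets, not measured, had signals of 1.33 and 37.8 (1418910_at) and of 1.53 and 3.23 (1432410_a_at). All 3 pointed the same way, but only the DKK1 signal of 1435479_at stood above the filter.

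The receptor genes differed by less than 2-fold. Bmpr1a encodes a type I receptor that binds Bmp2 and Bmp4, and its probe sets were all higher on the DKK1 array. The brightest, 1425492_at, went from 1637 in control to 2538 in DKK1 cells, 1.55-fold. On 1425494_s_at the control signal was 468 and the DKK1 signal 743, on 1425493_at they were 279 and 444, and on 1425491_at 187 and 329. The fifth, 1451729_at, lay close to the filter in control cells, with 74.5 against 152.8. Over its 5 measured probe sets the differences lay between 0.63 and 0.89, with a mean of 0.72 and an SD of 0.11 between probe sets. That SD describes agreement between probe sets of the same arrays and says nothing of the spread between cultures. A dim sixth probe set, 1445413_at, had signals of 3.48 and 55.6, both below the filter.

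Bmpr2 encodes the type II receptor for BMPs, best known from its loss in heritable pulmonary hypertension. Its brightest probe set, 1434310_at, went from 3157 for control to 4845 for DKK1, 1.53-fold. The other two were closer together or dimmer, at 141.8 and 165.9 (1419616_at) and at 58.1 and 109.6 (1441652_at). The mean difference was 0.53 with an SD of 0.29 between the 3 probe sets, and 26.6% of all measured genes had a larger one. Neither receptor gene was called, and with 1 array a group a difference of this size has no replicate error to be read against.

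**Figure D2:**
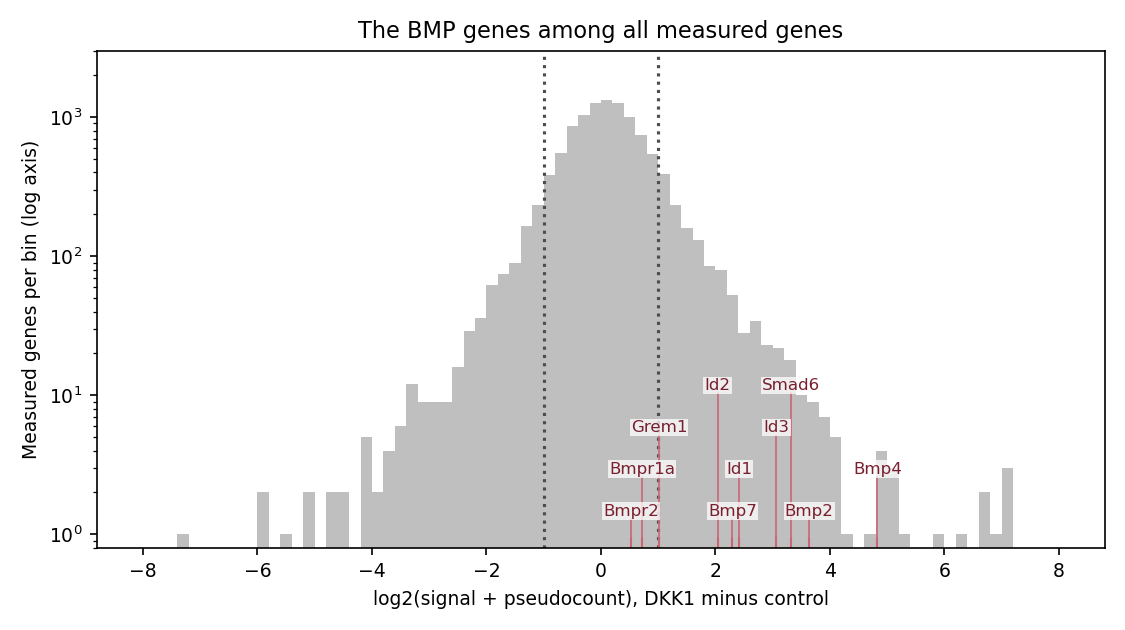
Histogram of the differences (log2 scale, DKK1 minus control) of all 11058 measured genes in bins on a log count axis, with the 10 BMP genes marked and dotted lines at 2-fold. The ligand and target genes lie in the upper tail between 2.04 and 4.83, Grem1 lies at the 2-fold line with 1.01, and Bmpr1a and Bmpr2 lie below it at 0.72 and 0.53.

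The target genes were higher by 2.04 to 3.32. Smad6, an inhibitory Smad that binds the activated type I receptor and damps BMP signalling as feedback, went from 247 to 2609 on its 1 probe set (1422771_at). Both signals were above the filter, the ratio was 10.6 and the difference 3.32. TGF-beta can induce Smad6 as well, so the gene is not a target of BMPs alone.

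The Id genes encode helix-loop-helix proteins without a DNA-binding region, which pair with E proteins and keep them off DNA. Id3 went from 720 to 6140 (1416630_at), a ratio of 8.53 and a difference of 3.06. Id1, the gene most often used as a readout of BMP signalling, went from 732 to 3967 (1425895_a_at), a ratio of 5.42 and a difference of 2.41. For both genes the 2 signals were above the filter of 71.3.

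Id2 had 3 measured probe sets and its difference depended on which was read. The brightest, 1435176_a_at, gave 324 for control against 2150 for DKK1, a difference of 2.67. For 1422537_a_at the signals were 110.03 and 592, a difference of 2.26. The dimmest, 1453596_at, gave 39.6 and 110.6, a difference of 1.18. The mean was 2.04 with an SD of 0.77 between probe sets, and raising dim signals to the filter gave at least 3.81-fold. All 3 probe sets were higher on the DKK1 array. The dimmest differed least, and since its control signal was below the filter its bound was only at least 1.55-fold. Over the 18 measured probe sets of the 10 genes, 10 had a difference of at least 1 on the log2(signal + 16.6) scale, against 12.1% of the 19360 measured probe sets with 1 symbol.

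The DNA before the starts of called ligand and target genes was then read, and it is printed for Bmp4, Smad6, Id2 and Id3. Whether these genes share a regulator was not tested. The 250 bases before the annotated start were taken from RefSeq (assembly GRCm38.p6), where 7 of the 10 genes were matched. Bmp2, Bmp7 and Id1 were not matched. Capitals mark GGCGCC, a GC-rich element bound by Smad1 and Smad5, which reads the same on both strands, and GTCT or its reverse complement AGAC, the Smad box. These letters cannot overlap one another. The sequences run 5′ to 3′ towards the start.
Bmp4 (chr14:46390670-46390919, minus strand): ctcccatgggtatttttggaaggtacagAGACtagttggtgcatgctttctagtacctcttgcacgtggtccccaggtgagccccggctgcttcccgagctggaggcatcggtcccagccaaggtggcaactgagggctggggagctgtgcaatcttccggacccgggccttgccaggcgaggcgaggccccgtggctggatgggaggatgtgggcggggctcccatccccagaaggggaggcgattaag
Smad6 (chr9:64022060-64022309, minus strand): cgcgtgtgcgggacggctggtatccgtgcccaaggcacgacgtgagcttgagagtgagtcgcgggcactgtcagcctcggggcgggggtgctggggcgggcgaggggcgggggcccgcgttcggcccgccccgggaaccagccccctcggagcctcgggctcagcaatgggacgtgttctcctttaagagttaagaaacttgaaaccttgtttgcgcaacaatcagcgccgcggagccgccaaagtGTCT
Id2 (chr12:25096093-25096342, minus strand): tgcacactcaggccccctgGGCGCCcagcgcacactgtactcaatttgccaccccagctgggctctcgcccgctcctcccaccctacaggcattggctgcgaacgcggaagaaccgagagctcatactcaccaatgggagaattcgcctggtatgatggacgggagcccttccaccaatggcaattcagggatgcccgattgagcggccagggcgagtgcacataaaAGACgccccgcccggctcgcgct
Id3 (chr4:136143572-136143821, plus strand): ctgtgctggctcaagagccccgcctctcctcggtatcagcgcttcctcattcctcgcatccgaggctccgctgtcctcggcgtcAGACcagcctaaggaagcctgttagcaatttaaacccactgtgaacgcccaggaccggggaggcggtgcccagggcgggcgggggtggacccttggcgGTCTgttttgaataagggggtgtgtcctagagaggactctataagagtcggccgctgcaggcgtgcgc

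Among these 4, only the window of Id2 held GGCGCC, at 231 to 226 bases before the start, and it also had AGAC at 23 to 20 bases before it. The window of Smad6 held 1 Smad box, in the last 4 bases before the start. That of Id3 held 2, at 166 to 163 and 68 to 65 bases, and that of Bmp4 held 1, at 222 to 219 bases. Of the other 3 matched genes, Grem1 had 1 GGCGCC and 4 Smad boxes, and Bmpr1a and Bmpr2, which were not called, had 1 GGCGCC each and no Smad box. Over all 32851 promoter windows of that length, 9.59% held GGCGCC, 82.9% a Smad box and 7.06% both. A match is a description of the sequence and not a binding site, and 7 genes are too few to compare called with uncalled ones.

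Grem1 encodes gremlin, which binds Bmp2, Bmp4 and Bmp7 and keeps them from their receptors. Its 1 probe set, 1425357_a_at, gave 3215 for control against 6513 for DKK1. The ratio was 2.03 and the difference 1.01, just past the limit for a call, and 11.5% of all measured genes differed by more. The call ended with each array scaled to its median (0.69) and with scaling on the poly-A controls (0.38).

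The rest of the pathway was read from a list of 54 further genes. Of these, 49 were on the array with a symbol of their own and 25 were measured, of which 7 were called higher and 0 lower, where 11.7% of all measured genes were called higher and 6.91% lower. The median difference was 0.46, with 23 above 0 and 2 below, where 55.9% of all measured genes were above 0. Of the 11 further ligand genes 1 was measured and 0 were called, where 11.7% of all measured genes were called higher. It was Gdf2, at 0.33, with signals of 111 and 144 for control and DKK1. Of the 24 on the array that were not measured, 7 were ligand genes. Among them Bmp6 had signals of 57.7 and 16.9 and Bmp8a of 92.6 and 43.0, both lower on the DKK1 array. Others went the other way, such as Gdf5 with 13.8 and 45.3.

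Secreted and membrane antagonists held 5 of the 7 calls, out of 8 measured, where 11.7% of all measured genes were called higher. A further 7 on the array were not measured, and the list was chosen with earlier results of these data known. Nbl1, which encodes a DAN family protein that binds BMPs, went from 55.5, below the filter, to 734, a difference of 3.38 and at least 10.3-fold. Bmper, a secreted BMP-binding protein related to crossveinless, went from 663 to 2958, a difference of 2.13. Fst, which encodes follistatin, a binder of activins and some BMPs, was higher by 2.08 (SD 0.37 between 2 probe sets), with signals of 263 and 1402 on the brighter one. Crim1, a membrane protein with cysteine-rich repeats that binds BMPs, was higher by 1.63 (SD 0.55, 2 probe sets). Fstl1, a follistatin-like secreted protein, was higher by 1.60 (SD 0.02, 2 probe sets), from 4140 to 12691 on the brighter probe set, and its call ended with scaling on the poly-A controls (0.96). The genes of this class that were measured and not called were Twsg1, Bambi and Dand5, at 0.34 to 0.66. With scaling on the hybridisation controls a further probe set of Twsg1 passed the filter and the gene was called, at 1.54. Noggin, the classical BMP antagonist, was not measured, with signals of 2.02 and 4.29 for Nog, and chordin was not measured either, at 58.4 and 66.8 for Chrd.

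Among receptors and co-receptors, 1 of 6 measured genes was called higher, where 11.7% of all measured genes were. Rgma, which encodes a membrane-anchored BMP co-receptor, went from 100.4 to 348, a difference of 1.64. Tgfbr3, which encodes betaglycan, was higher by 0.78 and Acvr2a, a type II receptor shared with activins, was lower by a difference of −0.50, and neither was called. Tgfbr3 reached 1.15 with scaling on the hybridisation controls and Acvr2a −1.12 with scaling on the poly-A controls.

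The Smads and their ubiquitin ligases had 6 measured genes and no call, where 11.7% of all measured genes were called higher and 6.91% lower. Smad1, Smad4 and Smad5, which carry the signal to the nucleus, had mean differences of 0.02, 0.08 and 0.15. The brightest probe set of Smad1 gave 2745 for control against 2564 for DKK1, and that of Smad5 gave 807 against 1210. For Smad4 the 3 probe sets gave signals of 4757 and 4963, of 5074 and 4645, and of 903 and 1120 in control and DKK1 cells. The probe sets of Smad5 went both ways, from −0.58 to 0.57. Smad7, the other inhibitory Smad, went from 587 to 1518 on the brighter of its 2 probe sets and from 403 to 554 on the other. The differences were 1.35 and 0.44, and their mean of 0.90 was not called, though it was with scaling on the hybridisation controls (1.26) and from the brighter probe set alone (1.35). Smurf2 (0.46) and Smurf1 (−0.55), ubiquitin ligases that act on Smads and receptors, were not called.

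Of the further target genes, 4 of 10 were measured and 1 was called higher, where 11.7% of all measured genes were. Msx1, a homeobox gene, had signals of 125.3 and 273, a difference of 1.03, just past the limit. Its call ended under 6 of 11 alternatives, at 0.44 to 0.81. Dlx2 (0.51) and the osteoblast factor gene Sp7 (0.36) were not called, and Id4, the remaining Id gene, was not measured.

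**Figure D3:**
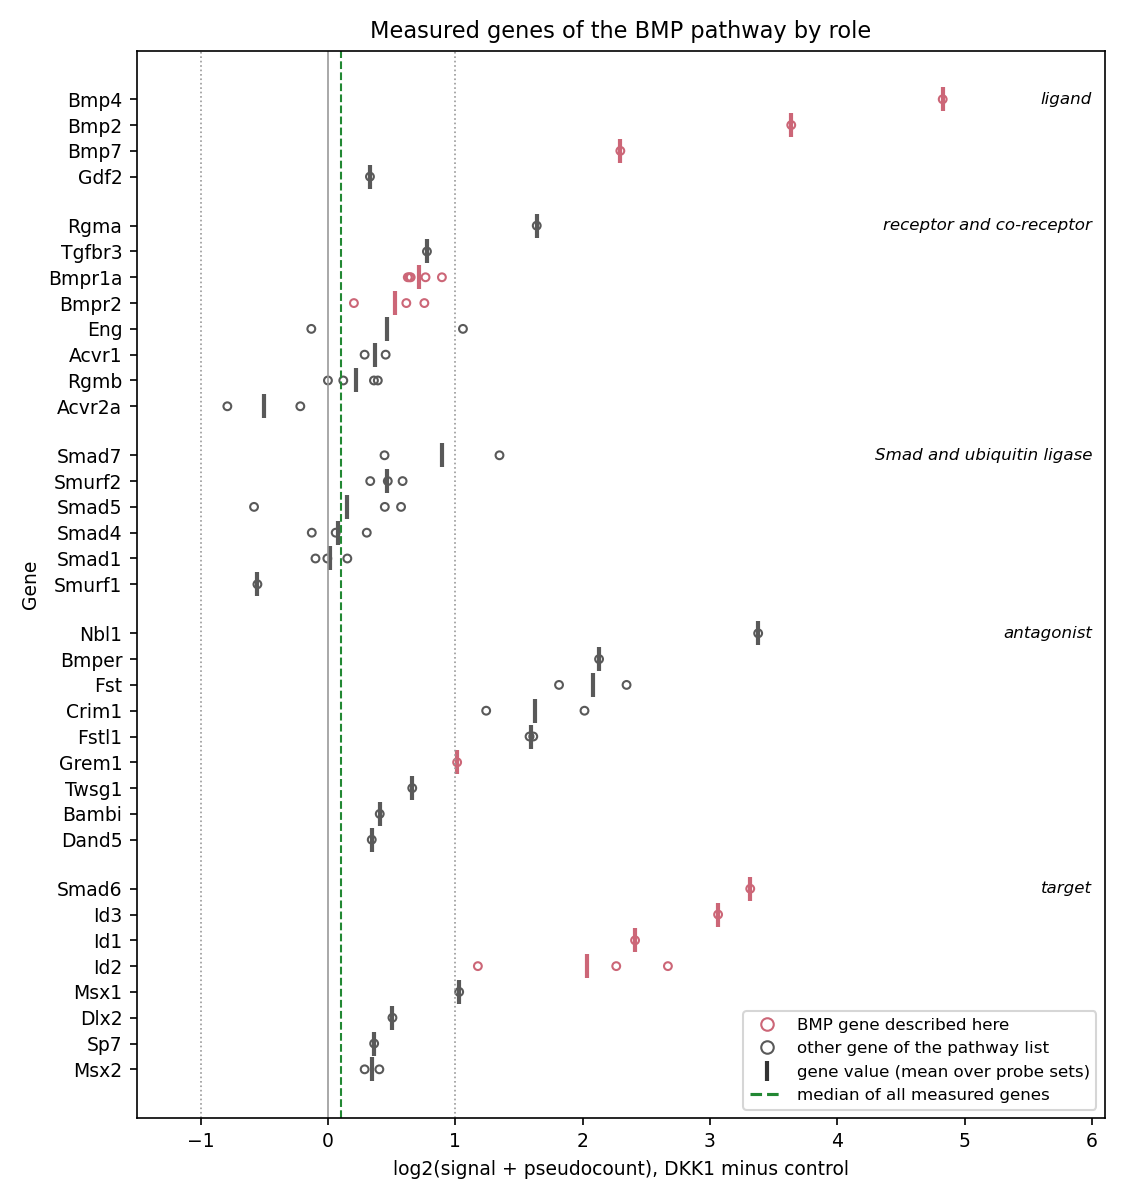
Differences (log2 scale, DKK1 minus control) of the 35 measured pathway genes by role, with a circle for each measured probe set, a bar for the gene's mean, dotted lines at 2-fold and a dashed line at 0.10, the median of all measured genes. Ligand and target genes described here (red) reach 2.04 to 4.83 and 5 further antagonist genes reach 1.60 to 3.38, while Smad1, Smad4 and Smad5 lie between 0.02 and 0.15.

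The scaling of the arrays sets the level against which these differences are read. MAS5 brought both arrays to the same mean signal of 500 without the top and bottom 2%. Control RNAs added to the samples did not match after that scaling, with a median log2 ratio of −0.37 over 18 hybridisation control probe sets and 0.64 over the 20 measured poly-A control probe sets. With the arrays scaled on the hybridisation controls the median of all genes was 0.46, with scaling on the poly-A controls −0.52, and with each array scaled to its median −0.22. Higher genes made up 62.9% of all calls as deposited, 86.2% and 15.1% with these spike-in scalings, 34.3% with median scaling, 49.8% after quantile normalization and 53.7% after loess.

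The ligand and target genes kept their calls across the scalings where they were measured. That was largely set beforehand and is a description. The scalings mostly shift all genes together, with medians of all genes between −0.52 and 0.46. The ligand and target genes started at 2.04 or more and were chosen with these signals known. With scaling on the poly-A controls, 6 of 9 measured genes were called higher, where 4.27% of all genes were, and 0 lower, where 24.1% were. Bmp4 then differed by 4.26, Bmp2 by 3.14, Smad6 by 2.70, Id3 by 2.43, Id2 by 1.86 and Id1 by 1.78. Bmp7 was not measured there, and Bmpr2 was at −0.06, which is 0.46 above the median of all genes under that scaling. With scaling on the hybridisation controls 9 of 10 were called higher, against 21.6% of all genes, and 0 lower, against 3.45%, and Bmpr1a was the gene added, at 1.07. Raising dim signals to the filter ended the call of Bmp7, at 0.98.

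**Figure D4:**
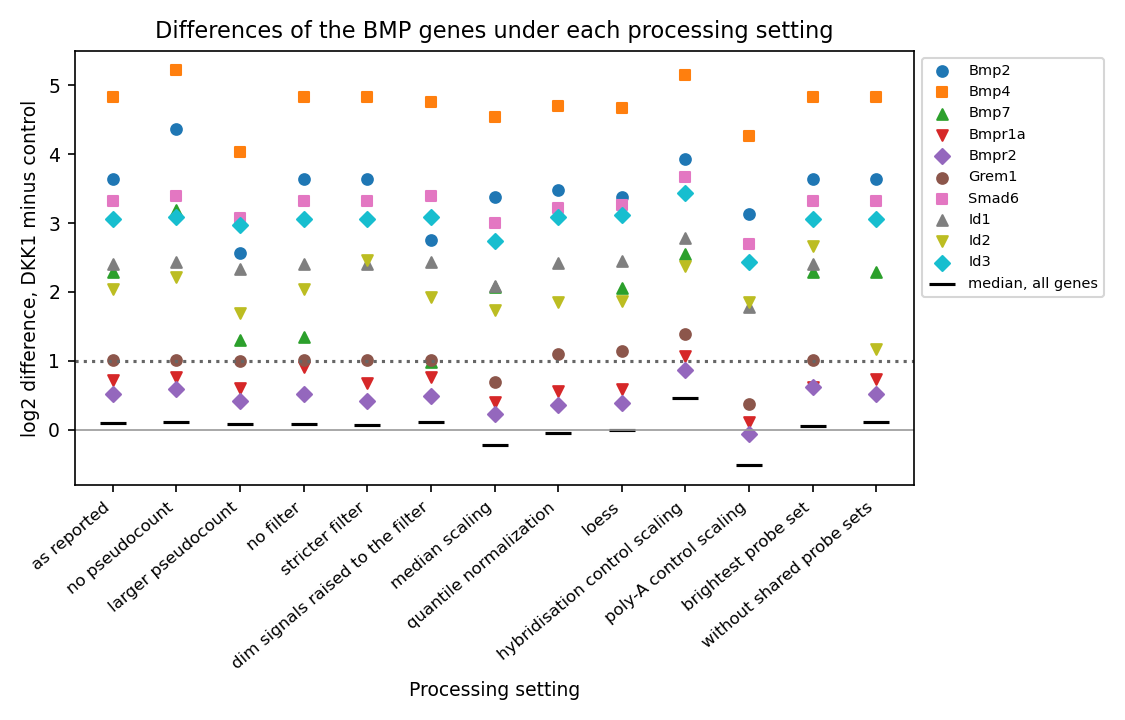
Differences of the 10 BMP genes (log2 scale, DKK1 minus control) as reported and under 12 other processing settings, with black bars for the median of all measured genes and a dotted line at 2-fold. Bmp4, Bmp2, Smad6, Id1, Id2 and Id3 stay above the dotted line wherever they have a value, between 1.18 and 5.22, and Grem1 crosses it.

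Markers of the labelled cell type and of others were read on the same arrays. For the calls below, 11.7% of all measured genes were called higher and 6.91% lower. Over the 6 of 8 osteoblast markers on the array with a symbol of their own, signals summed to 19257 (control) and 22776 (DKK1). Of the 5 that were measured, 0 were called. Within that sum the mean signal of Col1a2 went from 13567 to 11425, that of Col1a1 from 1895 to 3981 and that of Sparc from 3539 to 7054. The 2 probe sets of Col1a1 disagreed, with differences of 0.05 and 1.54 (SD 1.05). Those of Col1a2 went both ways, from −0.35 to 0.48. Alpl gave 147 and 182, and Sp7 gave 87.0 and 116.6. Ibsp, a marker of mature osteoblasts, was below the filter on both arrays, with mean signals of 21.5 and 18.3. Of the 4 smooth muscle markers 2 were measured and both were called higher, against 11.7% of all measured genes. Acta2 was higher by 2.58 and Tagln by 3.08. The control signal of Tagln and of 1 measured probe set of Acta2 was below the filter, and with dim signals raised to it the folds were at least 3.67 for Acta2 and 3.46 for Tagln. Summed over the 4 genes, the control signal was 2420 and the DKK1 signal 10540. Nearly all of both sums was Acta2, with mean signals of 2397 and 10220. Myh11 (mean signals of 4.99 and 11.1) and Cnn1 (3.75 and 62.8) were below the filter on both arrays and not measured. The part of the smooth muscle markers in the differences of the BMP genes was not tested. Macrophage and leukocyte markers had summed signals of 318 and 485 over 6 genes, with 1 called higher, 1 lower and Ptprc at 6.91 and 5.07. Endothelial markers summed to 148 and 173 and chondrocyte markers to 424 and 354, with 1 of 4 genes measured in each and no call. In RNA of a whole culture, fewer cells of a type and less RNA per cell cannot be told apart.

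The transgene is human, and the mouse Dkk1 probe sets, at 13.0 against 42.5 and 10.97 against 2.01, need not match it and check nothing about the labels.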

How the data were processed

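RNA of 2 MOS-J cultures was labelled from 500 ng with a 3' in vitro transcription protocol and hybridised to 1 Affymetrix mouse array each, per the labels' protocols. The deposited values are intensity values, 1 MAS5 signal per probe set, for 45101 probe sets, per the submitters' processing notes. The sources used here do not give the MAS5 version, its settings or the array's genome build.

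Symbols came from the platform annotation and were checked by gene ID against RefSeq (GRCm38.p6). None changed. Of all probe sets, 34945 carry 1 symbol, 932 several, and 64 are array controls, which were left out. Probe sets of a gene were averaged after the filter, which left 11058 genes. The pooled SD between probe sets of a gene was 0.45 on the log2 scale over 4978 genes.

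With 1 array per group no test was run, and it is the number of arrays that sets the precision. The 10 genes and the pathway, marker and added lists were chosen with earlier results of these data known. Named were all 10 genes, every called gene of the pathway list and up to 3 genes per role with the largest difference. Smad1, Smad4, Smad5, Nog, Chrd, Bmp6, Bmp8a, Gdf5, Id4, Atoh8, Dlx5, Twsg1, Bambi and Dand5 were named outside that rule, after their values were seen. So were the markers and added genes given by name. The calling script was run on simulated data with large known changes and less noise than lies between probe sets here. That run checks the code and says nothing of the calls made on these arrays. Alternatives changed the pseudocount, the filter, the scaling and the choice of probe sets. Python 3.11.15, numpy 2.4.6, pandas 2.3.3 and statsmodels 0.14.6 were used.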

Additional observations from a re-analysis of the deposited data

How the results depend on the processing

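No paired analysis was possible because each group has 1 array and the labels give no replicate numbers. Of 12 alternatives, the count of the 10 genes called higher ran from 6 to 9 and that called lower was 0 in each, with 8 to 10 measured. Of 115 values of the 10 genes under these alternatives, 111 kept their side of the 2-fold limit, 3 lost a call (Bmp7 once, Grem1 with 2 scalings) and 1 gained one (Bmpr1a). Among the 111, Bmpr2 changed sign with scaling on the poly-A controls (−0.06). Id1 and Grem1 have no value without probe sets that can match several transcripts, and Bmp7 none under 3 alternatives, where its probe set was below the filter. Without such shared probe sets Id2 was at 1.18, from its dimmest probe set alone. The count of further pathway genes called higher ran from 5 to 10, where 4.27% to 21.6% of all genes were. The count called lower was 1 without the filter (Bmp6; 5.63% of all genes), 1 with median scaling (13% of all), 1 with quantile normalization (8.83%; both Bmp8a) and 3 with scaling on the poly-A controls (Bmp8a, Acvr2a and Smurf1; 24.1%), where the median of the pathway list was −0.14 against −0.52 for all genes. The cause was not tested, beyond the shift that the scaling itself sets. Signals below the filter limit Bmp2, Bmp4 and Bmp7, whose control levels are known only as dim.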

Other observations

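Genes around BMP signalling that the pathway list did not hold were read from 2 short lists added after the files had been seen. Partners of the Id proteins and related helix-loop-helix factors differed by less than 2-fold in their gene means. Of 9 such genes 7 were measured and 0 called, with a median of 0.43. Of all measured genes 11.7% were called higher and 6.91% lower. The E protein genes Tcf3, Tcf4 and Tcf12 were at 0.61 (SD 0.11 between 2 probe sets), 0.75 (SD 0.30, 6 probe sets) and 0.42 (SD 0.77, 5 probe sets). The probe sets of Tcf12 went both ways, from −0.43 to 1.57. Twist1, a regulator of mesenchymal cells, was at 0.43 and went from 774 to 1045. Hes1, a Notch target, was at −0.60 with signals of 162 and 102. Of 6 genes of BMP processing, 2 were measured and 0 called. These were Furin, which encodes a protease that cleaves BMP precursors (0.50, signals of 644 and 918), and Bmp1, a procollagen protease that cleaves chordin and is no BMP ligand (0.30).

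By position, 4 of the 10 genes, Bmp2, Bmp7, Id1 and Grem1, lie on mouse chromosome 2. The 886 measured genes of that chromosome had a median difference of 0.14 with 11.6% called higher, against 0.10 and 11.7% for all. Bmp4 and Bmpr1a lie on chromosome 14, where the median was −0.23 and 10.7% of 374 genes were called higher.

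Atoh8, a BMP-responsive transcription factor gene on the pathway list, was not measured but went from 9.26 to 113 on its 1 probe set, at least 1.59-fold. Dlx5, another target gene of that list that was not measured, was lower, from 77.4 to 36.8 on its 1 probe set, at least 1.09-fold. Both were singled out after their values were seen.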
